A study of Mus musculus with 2 samples.

Results

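The genes described here are those of the mouse cilium and its axoneme that the array names by the stems Ift, Bbs, Efcab, Dnah (older form Dnahc), Tekt and Rsph followed by a number. The members were chosen by these symbols in the authors' series table, with the FLAG IP and input signals of these same arrays in view, so the values below are a description of the chosen genes and no test was made on them. The symbols matched 37 genes with 77 probes, out of 20161 named genes with 32576 probes on the array, and no symbol with the stem Rsph matched. Of the 37 genes, 33 had a probe whose signal exceeded background in both replicates of the FLAG IP, of the input or of both, and are called measured here. The 4 others, Dnah1, Dnah3, Dnah6 and Tekt3, were dim in both groups and have no fold change.

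The study set RNA recovered by immunoprecipitation with an agarose-bound antibody against FLAG (the FLAG IP, 2 arrays) beside input RNA that saw no antibody (2 arrays). Both groups came from male gonads of MCH mouse embryos at embryonic day 14.5, and all carried a transgene in which the Nanos2 enhancer drives 3xFLAG-tagged Nanos2 with the 3′UTR of Nanos2. The tagged protein is thus made where that enhancer is active. Nanos2 itself is an RNA-binding protein of male germ cells. The series text calls the arrays of a group biological duplicates, and the sources used here do not say whether animals were pooled. An immunoprecipitation from gonads without the tag is not analysed here, so RNA held by the tagged protein and RNA carried through the precipitation in other ways cannot be told apart.

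A cilium is built on an axoneme of microtubule doublets that grows from a basal body. Intraflagellar transport (IFT) trains carry building blocks to the tip with a kinesin motor and return with a dynein motor, and the BBSome is a coat-like complex that moves membrane proteins on these trains. Motile cilia and sperm tails add axonemal dynein arms, whose heavy chains are the Dnah genes, and tektin filaments in the doublet wall. Primary cilia without these arms are found on many cells of the fetal gonad, and sperm tails are assembled only after birth.

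All values are signals of single probes given as a percentage of the 75th percentile of all non-control spots on the same array. This sets arrays of different brightness on a common scale for one probe, but not where its signal is near background. Levels are not set against each other between genes, because probes differ in how they bind. FLAG IP replicate 1 stood apart from the other arrays. Its 75th percentile lay at 55.7 intensity units, against 608 on FLAG IP replicate 2 and 1026 and 1038 on the input arrays, and 42.7% of its spots were well above background, against 65.4% to 70.2% on the others. The lowest signal that counted as well above background was 14.7% of the 75th percentile on FLAG IP replicate 1, 1.60% on FLAG IP replicate 2, and 1.43% and 0.932% on the input arrays, so a member near 4% on the first array is at its floor. The Tekt3 probe, which no array showed well above background, read 2.99% and 0.98% in the FLAG IP, against 0.41% and 0.24% in the input. That is a log2 difference of 2.44 between signals near background, so ratios of dim probes are not read. Input replicate 1 was alone on its slide, and the 3 other arrays shared another. Nanos2, read as a check of the labels, had 148% and 122% in the FLAG IP, against 39.8% and 33.7% in the input. Both FLAG IP arrays were above both input arrays for it, and its log2 fold change was 1.88 ± 0.20 (SE).

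**Figure D1:**
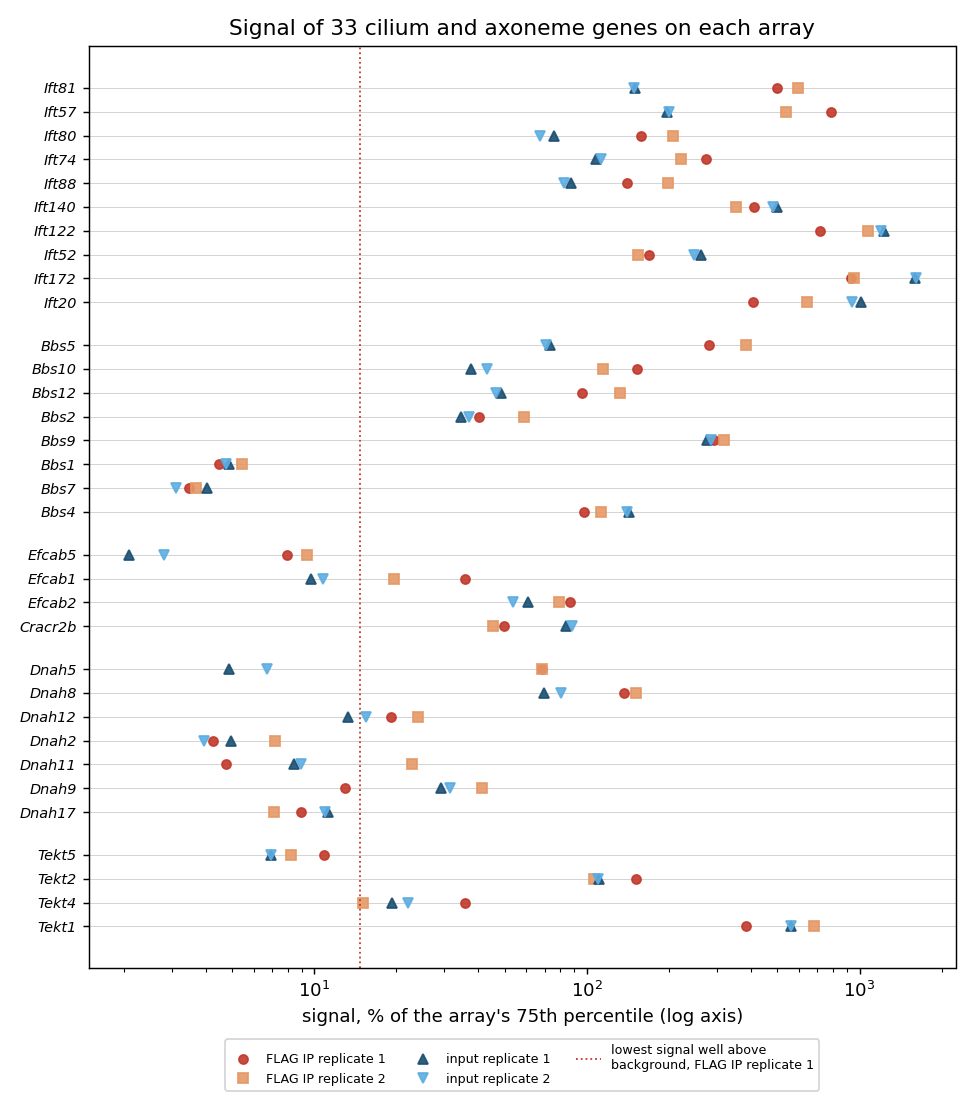
Signal of the 33 measured genes on each of the 4 arrays, as a percentage of the 75th percentile of that array on a log axis, with genes grouped by stem and ordered by fold change. Circles and squares are the FLAG IP arrays, triangles the input arrays; the dotted line at 14.7% is the lowest signal that was well above background on FLAG IP replicate 1, and several Dnah genes, Bbs1, Bbs7, Efcab5 and Tekt5 have FLAG IP values to the left of it.

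Among the 33 measured genes, 12 were called higher and 3 lower in the FLAG IP and 18 were not called. A call is an adjusted p under 0.05 in limma, fitted on all 15266 genes tested. Over all genes tested 28.0% were called higher and 25.4% lower. The FLAG IP arrays did not overlap the input arrays for 25 of the 33 genes, or 75.8%, and for 80.2% of all genes tested. The median log2 fold change was 0.32 over the 33 genes and 0.07 over all genes tested, and 23 of the 33 lay above 0. Since the members were chosen with these values known, nothing is read from these shares. By stem, 5 of 10 Ift genes were called higher and 2 lower, 3 of 8 Bbs genes were called higher and 0 lower, 2 of 7 measured Dnah genes were called higher and 0 lower, 2 of 4 Efcab genes were called higher and 1 lower, and none of the 4 measured Tekt genes was called. The median log2 fold change was 0.28 over the Ift and Bbs genes, 0.26 over the Dnah and Tekt genes and 0.96 over the Efcab genes.

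The counts changed with the arrays that entered the fit. Without input replicate 1, 3 members were called higher (Bbs5, Dnah5 and Ift81) and 0 lower, with 9 higher and 0 lower at an unadjusted p under 0.05, and over all genes 9.37% were called higher and 10.1% lower. These are also the counts within the slide that holds 3 arrays. Without input replicate 2, 6 were called higher and 0 lower in limma, with 10 and 0 at an unadjusted p under 0.05, and over all genes 10.1% and 11.3%. Without FLAG IP replicate 1 the counts were 19 higher and 8 lower, beside 40.6% and 40.7% of all genes. Without FLAG IP replicate 2 they were 17 higher and 10 lower, beside 44.8% and 37.4% of all genes. The counts of members thus moved in the same direction as those over the whole array. Those fits had a single FLAG IP array, which was assumed to vary as the input arrays do. Other settings ended calls too. Normexp background correction left 2 of the 12 higher calls (Bbs10 and Dnah5) and 0 of the 3 lower ones in limma, with 11 higher and 1 lower at an unadjusted p under 0.05, beside 8.33% and 9.16% of all genes called. With no filter on dim probes Cracr2b was the 1 gene called lower. Leaving out 1 array could not reverse the direction of a member called with all arrays. For each of those members both FLAG IP arrays lay on the same side of both input arrays. The input arrays differed little from each other, with a median SD over genes of 0.06 on the log2 scale, against 0.30 for the FLAG IP arrays.

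**Figure D2:**
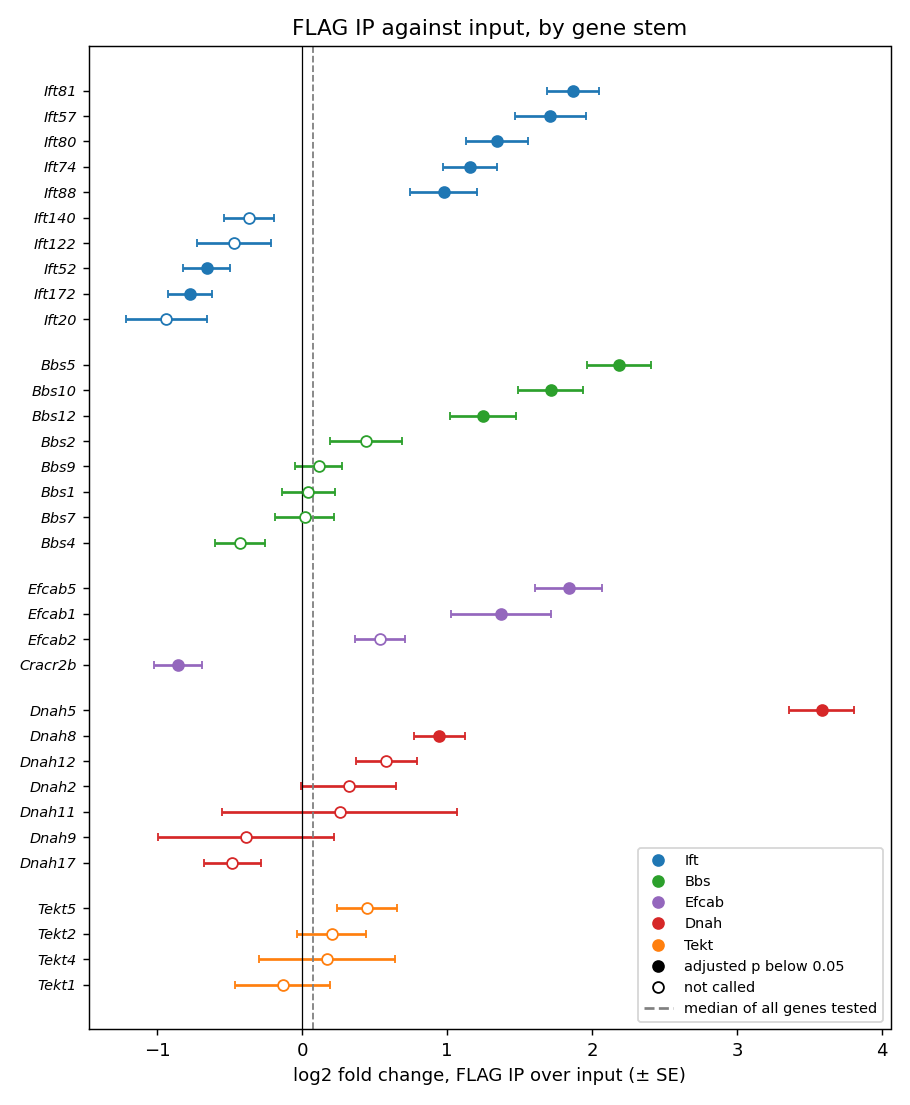
Log2 fold change of the FLAG IP over the input for the 33 measured genes, with moderated SE from limma, on signals scaled to the 75th percentile of each array. Filled points have an adjusted p under 0.05, and the dashed line is the median of all 15266 genes tested, 0.07. Dnah5 lies farthest to the right at 3.58; without scaling, of the 12 genes called higher only Dnah5 stays above 0.

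On the brightest probe of each gene, 5 Ift genes lay above the input and 5 below it. No brightest probe fell between a log2 fold change of -0.36 and 0.97. Other tested probes did, at 0.52 for Ift80, 0.24 for Ift57, -0.01 and -0.05 for Ift140 and -0.24 for Ift172. With the mean of a gene's probes, Ift57 and Ift80 were not called. On their brightest probes all 10 Ift genes had FLAG IP arrays that did not overlap the input arrays, as did 80.2% of all genes tested. Ift81, which binds tubulin cargo together with Ift74 in the core of the IFT-B complex, had 498% and 594% in the FLAG IP, against 149.6% and 148% in the input. Its log2 fold change was 1.87 ± 0.18 (SE), the highest of the stem. Its partner Ift74 had 273% and 222% in the FLAG IP, against 108% and 113% in the input. Both FLAG IP arrays of Ift74 lay above both input arrays, and the log2 fold change was 1.16 ± 0.19 (SE). Ift88, the core subunit lost in the polycystic Oak Ridge mouse, had 140.2% and 198% in the FLAG IP, against 87.3% and 82.3% in the input, with a log2 fold change of 0.97 ± 0.23 (SE). Ift57 and Ift80 belong to the peripheral part of IFT-B, which faces the kinesin motor. Ift57 had 785% and 536% in the FLAG IP, against 196% and 200.1% in the input, and the log2 fold change was 1.71 ± 0.25 (SE). Ift80 had 158% and 207% in the FLAG IP, against 75.8% and 67.4% in the input, and the log2 fold change was 1.34 ± 0.21 (SE). These 5 genes are those of the stem called higher.

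On the other side, Ift52, a core IFT-B subunit, had 169% and 154% in the FLAG IP, against 263% and 247% in the input. Ift172, the largest peripheral IFT-B subunit, had 928% and 954% in the FLAG IP, against 1604% and 1613% in the input. Both were called lower, with log2 fold changes of -0.66 ± 0.16 (SE) for Ift52 and -0.77 ± 0.15 (SE) for Ift172. Neither was called with normexp correction, with no filter on dim probes, with the replicate number as a block, or without either input array. Ift20, the small IFT-B subunit that also resides at the Golgi, had 406% and 641% in the FLAG IP, against 1013% and 941% in the input. Its FLAG IP arrays lay below the input but apart from each other, and its log2 fold change of -0.94 ± 0.28 (SE) was not called. Ift122 and Ift140 are subunits of IFT-A, the complex needed for the return journey. Ift122 had 715% and 1070% in the FLAG IP, against 1232% and 1196% in the input, a log2 fold change of -0.47 ± 0.26 (SE). Ift140 had 409% and 353% in the FLAG IP, against 496% and 483% in the input, a log2 fold change of -0.36 ± 0.17 (SE). Neither was called.

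The subunits that the array lists under other symbols were also spread over both directions. Over the complexes with both kinds of symbol, the IFT-B core had 4 genes called higher and 3 lower of 10 measured (median log2 fold change 0.06), the IFT-B periphery 3 higher and 2 lower of 6 (0.28), and IFT-A 2 higher and 0 lower of 5 (-0.18). In the core the values ran from -2.51 for Ift22 to 1.87 for Ift81, and in the periphery from -1.54 for Cluap1 to 1.82 for Traf3ip1. No complex had all of its measured genes called on the same side. Over all genes tested 28.0% were called higher and 25.4% lower, and nothing is read from the mix of calls within a complex.

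The probes of one gene gave a check within the array. There were 14 members with more than 1 tested probe. For 10 of them all tested probes lay on the same side of 0, for 3 (Bbs10, Ift52 and Ift81) every tested probe was called the same way, and for none were probes called in opposite directions. Ift57 differed most between its probes, with a range of 2.09 on the log2 scale. Its brightest probe is the one given above, another probe had 46.7% and 238% in the FLAG IP, against 141% and 134% in the input, and the remaining one had 122% and 169% in the FLAG IP, against 123% and 121% in the input. Neither of these 2 probes was called, and on the one with 46.7% the FLAG IP arrays lay on either side of the input, so the value of Ift57 rests on 1 of 3 tested probes. Of the Ift80 probes 1 of 2 was called, and of the 4 Ift172 probes 1 was called, with all 4 between -0.81 and -0.24. Probes in the other members with more than 1 tested probe were not called in Bbs4, Bbs7, Dnah9, Ift140, Ift20 and Tekt1.

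**Figure D3:**
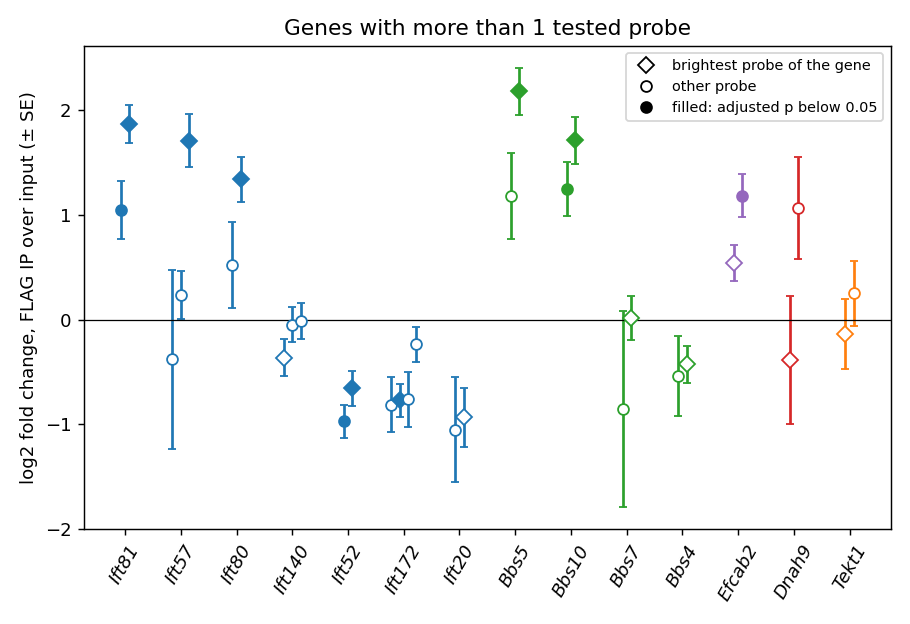
Log2 fold change (± SE) of the FLAG IP over the input for each tested probe of the 14 genes that had several; diamonds mark the brightest probe, which stands for the gene, and filled marks have an adjusted p under 0.05. The Ift52, Ift81 and Bbs10 probes keep together, and the 3 Ift57 probes run from -0.38 to 1.71.

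The Bbs genes were named from Bardet-Biedl syndrome, a human disorder of the cilium. Bbs5, the BBSome subunit with lipid-binding domains, had 280.0% and 383% in the FLAG IP, against 73.3% and 71% in the input. Its log2 fold change was 2.18 ± 0.22 (SE), and its other tested probe, at 1.18, was not called. Bbs10 and Bbs12 encode chaperonin-like proteins that help the BBSome to assemble. Bbs10 had 153% and 114% in the FLAG IP, against 37.7% and 43.1% in the input, with a log2 fold change of 1.71 ± 0.22 (SE). Bbs12 had 96% and 133% in the FLAG IP, against 48.6% and 46.4% in the input, with a log2 fold change of 1.25 ± 0.23 (SE). In all 3 genes both FLAG IP arrays were above both input arrays, and these 3 were the Bbs genes called. Mkks, which also encodes a chaperonin-like protein, had a log2 fold change of 0.59 ± 0.20 (SE) and was not called.

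None of the other BBSome subunits was called. Bbs2 had 40% and 58.7% in the FLAG IP, against 34.5% and 37.1% in the input, and Bbs9 had 292% and 318% in the FLAG IP, against 277% and 286% in the input. Both stood slightly above the input without overlap, with log2 fold changes of 0.44 for Bbs2 and 0.11 for Bbs9, and neither was called. Bbs4 had 97.6% and 113% in the FLAG IP, against 143% and 140.5% in the input, a log2 fold change of -0.43 ± 0.17 (SE) that was not called. Bbs1 and Bbs7 were dim, and on FLAG IP replicate 1 neither was well above background. Bbs1 had 4.48% and 5.45% in the FLAG IP, against 4.86% and 4.73% in the input, and Bbs7 had 3.47% and 3.7% in the FLAG IP, against 4.03% and 3.11% in the input. The groups overlapped for both, with log2 fold changes of 0.04 for Bbs1 and 0.02 for Bbs7, which turned to -0.98 and -1.42 with quantile normalization. Bbip1, a small BBSome subunit under another symbol, had 65.9% and 131% in the FLAG IP, against 50.4% and 53.6% in the input. Its arrays did not overlap, and its log2 fold change of 0.84 ± 0.38 (SE) was not called. Ttc8, the remaining subunit, was at -0.07. Over the 8 BBSome subunits under all symbols, 1 was called higher and 0 lower, beside 28.0% and 25.4% of all genes tested. Their median log2 fold change was 0.08.

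The largest difference among the 33 measured genes was that of Dnah5, an outer dynein arm heavy chain whose loss immobilises cilia in mouse and human. Dnah5 had 68.2% and 68.4% in the FLAG IP, against 4.86% and 6.69% in the input. The FLAG IP arrays agreed closely, all 4 arrays were well above background, and the log2 fold change was 3.58 ± 0.22 (SE), or 12.0-fold. This value comes from 1 of 3 probes. The 2 other Dnah5 probes were not tested, because in neither group did both arrays exceed background: the first had 4.82% and 1.64% in the FLAG IP, against 1.33% and 0.547% in the input, and the second 3.41% and 1.5% in the FLAG IP, against 1.31% and 0.803% in the input. The tested probe was designed on another transcript record than those 2, so which Dnah5 transcript it reads was not tested.

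Dnah8, an outer arm heavy chain of the sperm tail, had 137% and 152% in the FLAG IP, against 69.7% and 80.3% in the input. It was the other heavy chain called higher, at a log2 fold change of 0.95 ± 0.18 (SE). This value too comes from 1 of 3 probes, as the other Dnah8 probes were dim and not tested. The remaining 5 measured heavy chains were well above background on 1 FLAG IP array each and none was called. Dnah12, an inner arm heavy chain listed on the array as Dnahc7c, had 19.1% and 24.1% in the FLAG IP, against 13.3% and 15.4% in the input, and its log2 fold change was 0.58. Dnah17, an outer arm heavy chain, had 8.94% and 7.11% in the FLAG IP, against 11.3% and 11% in the input, at -0.48. In both genes the groups did not overlap, in opposite directions. Dnah2, an inner arm heavy chain, had 4.25% and 7.17% in the FLAG IP, against 4.97% and 3.93% in the input. Dnah11, an outer arm heavy chain, had 4.74% and 22.8% in the FLAG IP, against 8.42% and 8.97% in the input. Dnah9, also of the outer arm, had 13% and 41.2% in the FLAG IP, against 29.1% and 31.4% in the input. In these 3 genes FLAG IP replicate 2 was above the input, and in Dnah9 and Dnah11 FLAG IP replicate 1 was below it. Their log2 fold changes were 0.32 ± 0.33 (SE) for Dnah2, 0.26 ± 0.81 (SE) for Dnah11 and -0.39 ± 0.60 (SE) for Dnah9. Without FLAG IP replicate 1, Dnah9 and Dnah11 were called higher, and without FLAG IP replicate 2 they were called lower, so 1 array decides their direction. For Dnah9 this holds for its brightest probe. The other tested Dnah9 probe had 8.24% and 3.76% in the FLAG IP, against 2.12% and 3.32% in the input. It was at 1.07 ± 0.49 (SE), was not called, and was well above background on 1 FLAG IP array. Quantile normalization turned Dnah2 to -1.005 and Dnah11 to -0.38, and normexp correction turned Dnah9 to 0.51 and Dnah17 to 0.72. Dnah1, Dnah3 and Dnah6, all of the inner arm, were dim in both groups.

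The tektins are filament proteins of the axonemal doublet and none was called. Tekt1 had 382% and 679% in the FLAG IP, against 559.8% and 558% in the input, and Tekt4 had 35.9% and 15% in the FLAG IP, against 19.2% and 22.1% in the input. In both the input lay between the FLAG IP arrays, with log2 fold changes of -0.13 for Tekt1 and 0.17 for Tekt4. Tekt1 was called higher without FLAG IP replicate 1 and lower without FLAG IP replicate 2, and Tekt4 the other way round. Tekt2, a tektin needed for sperm tail motility in mouse, had 152% and 106% in the FLAG IP, against 111% and 109.6% in the input, a log2 fold change of 0.20 ± 0.24 (SE). The groups overlapped for it. Tekt5 had 10.8% and 8.23% in the FLAG IP, against 6.95% and 6.91% in the input, at 0.45. It was well above background on 1 FLAG IP array, and the groups did not overlap.

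The Efcab stem marks proteins with EF-hand calcium-binding domains and does not by itself mark a ciliary protein. Efcab1, known as calaxin, a calcium sensor of the outer dynein arm, had 35.7% and 19.6% in the FLAG IP, against 9.72% and 10.8% in the input. The FLAG IP arrays differed from each other but both exceeded the input, and the log2 fold change of 1.37 ± 0.34 (SE) was called higher. Of the 4 Efcab1 probes this was the only 1 tested. Efcab2, a subunit of the nexin link that holds neighbouring doublets together, had 86.8% and 79.2% in the FLAG IP, against 60.6% and 53.6% in the input. This brightest probe was not called at 0.54 ± 0.17 (SE), while its other probe had 40.7% and 31.6% in the FLAG IP, against 15.6% and 15.9% in the input and was called higher at 1.19. Efcab5 had 7.93% and 9.4% in the FLAG IP, against 2.09% and 2.8% in the input. It was well above background on 1 FLAG IP array and both input arrays, and its log2 fold change of 1.84 ± 0.23 (SE) was called higher. The array's Efcab4a is Cracr2b by its gene ID, a regulator of store-operated calcium channels that is not known as part of the cilium. Cracr2b had 49.8% and 45.1% in the FLAG IP, against 83.8% and 87.9% in the input and was called lower at -0.86 ± 0.16 (SE). It is kept in the counts because the symbols chose it.

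Other genes of the cilium, grouped in 8 lists by function, were read from the same fit. Of 104 listed genes 86 were measured, of which 25 were called higher, 18 lower and 43 not called, with a median log2 fold change of 0.22. The shares over all genes tested were 28.0% higher and 25.4% lower. Single values given for the genes of these lists are log2 fold changes. Of the listed genes named below, some were well above background on 1 FLAG IP array only. These are Rfx3, Rfx4, Kif17, Ccdc39, Ccdc65, Dnali1, Ift22, Sdccag8, Tctn2 and Tmem216. Without input replicate 1 the counts over these lists were 5 higher and 6 lower, without input replicate 2 they were 5 and 7, without FLAG IP replicate 1 they were 39 and 29, and without FLAG IP replicate 2 they were 40 and 32. Over all genes the shares in these fits were, in the same order, 9.37% higher and 10.1% lower, 10.1% and 11.3%, 40.6% and 40.7%, and 44.8% and 37.4%. With normexp correction 4 listed genes were called each way, beside 8.33% and 9.16% of all genes. The list medians ran from -0.63 to 1.31, on either side of the median of all genes.

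The list of cilium transcription factors had 6 measured genes, and all 6 were called higher, with a median of 1.31. Foxj1, the main switch for motile cilia, had 42.4% and 28.1% in the FLAG IP, against 5.28% and 6.55% in the input. Its log2 fold change was 2.55 ± 0.28 (SE). Trp73, a regulator upstream of Foxj1 in multiciliated cells, had 94.4% and 59.1% in the FLAG IP, against 17% and 19.4% in the input, at 2.04 ± 0.29 (SE). The RFX factors bind the X-box of ciliary promoters. Their log2 fold changes were 1.34 for Rfx2, 1.28 for Rfx1, 1.20 for Rfx3 and 0.97 for Rfx4. On FLAG IP replicate 1 Rfx3 had 6.53% and Rfx4 11%, and neither was well above background there. Without input replicate 1 or input replicate 2, 2 of the 6 were called. With quantile normalization, and with eBayes set to trend and robust, 4 were. With normexp background correction, 1 was.

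The motors of intraflagellar transport had 4 genes called higher and 2 lower of 9. On the log2 scale of the fold change, Kif17, an accessory kinesin, was at 1.89 and Tctex1d2, a dynein-2 light chain, at 0.88, while the dynein-2 subunits Dync2li1 and Wdr34 were at -0.84 and -1.05. Partners of the BBSome had 2 called higher and 0 lower of 8. These were Lztfl1, which controls entry of the BBSome into the cilium, at 1.72, and the GTPase Arl6 that recruits the BBSome to membranes, at 1.28. Lztfl1 had 2125% and 2292% in the FLAG IP, against 654% and 682% in the input. At the low end of this list were Wdpcp at -0.10 and Sdccag8 at -0.14, which were not called. The IFT subunits under other symbols had 4 higher and 3 lower of 11, with Traf3ip1 at 1.82 and Ttc26 at 1.04, against Cluap1 at -1.54 and Ift22 at -2.51.

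At the ciliary gate, the transition zone list had 4 called higher and 3 lower of 16. Among their log2 fold changes, Tctn3 stood at 1.47 and Rpgrip1l at 1.07, against -2.51 for Tmem216, which was called lower, and -2.16 for Tctn2, which was not called. The list of membrane proteins and GTPases had 2 higher and 6 lower of 15 and the lowest median, -0.63. Rab23, a GTPase that restrains hedgehog signalling, was at 1.12 and Rab3ip, an activator of Rab8, at 1.02. At the other end stood Unc119, a carrier of lipid-anchored cargo, at -2.44, and Arl3, the GTPase that releases such cargo, at -1.98. Genes for the dynein light and intermediate chains and the assembly factors had 2 higher and 1 lower of 11. They included Dnaaf5 at 1.04 and Dnal1, a light chain of the outer arm, at 0.75, and at the low end Dnal4 at -0.59 and Dnali1 at -1.72. The list of the central pair, radial spokes and nexin links had 1 higher and 3 lower of 10. Ccdc39, the ruler of axonemal repeats with Ccdc40, was at 2.01; Ccdc40 at 0.65 was not called; Ccdc65 was at -1.03 and Spef1 at -1.04.

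**Figure D4:**
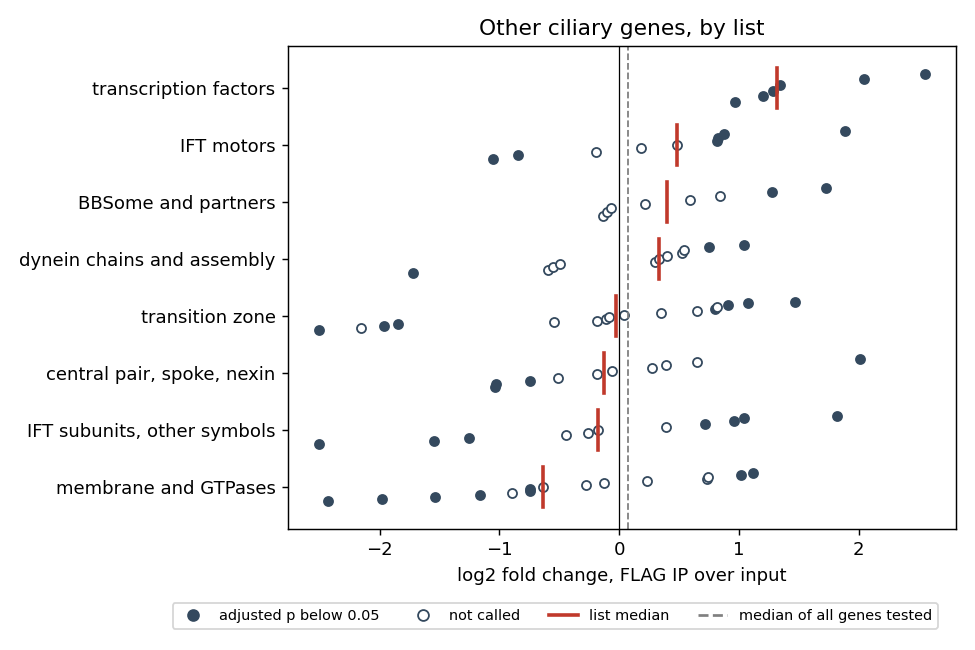
Log2 fold change of the FLAG IP over the input for the measured genes of 8 lists of other ciliary genes, on signals scaled to the 75th percentile of each array. Each point is a gene, filled where its adjusted p was under 0.05, the red bar is the median of the list, and the dashed line the median of all genes tested, 0.07. All 6 transcription factors lie to the right of 0, and the membrane and GTPase list has the lowest median; without scaling, every point moves to the left by the same 2.49.

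Because RFX factors stand among the genes called higher, the promoters of the members were searched for the X-box, in RefSeq sequences of build GRCm38.p6 that run from 250 bases before to 50 bases after the start of each gene. The motif searched was the element GTTNCC followed by 0 to 3 bases and the element GGNAAC, which reads the same on both strands. It was found in 2 of the 30 members with a promoter in the table, or 6.67%, and in 253 of 27025 genes in all, or 0.936%. The 2 matches are shown because they let the letters be compared. Both are given 5′ to 3′ on the strand of the gene, with these elements in capitals.
Bbs7 (chr3:36613489-36613518, minus strand): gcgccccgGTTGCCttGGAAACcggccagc
Ift57 (chr16:49699226-49699255, plus strand): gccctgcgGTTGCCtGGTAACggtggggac
The Bbs7 match lies 121 to 108 bases before the start and the Ift57 match 60 to 48 bases before it. The first element is the same in both, with 2 bases before the next element in Bbs7 and 1 in Ift57. The single element GTTGCC, on either strand and including the full matches, was present in 10 of 30 members, or 33.3%, and in 14.1% of all genes. In the FLAG IP the 2 genes with the full match differed: the log2 fold change was 1.71 for Ift57 and 0.02 for Bbs7. A match describes letters in a window and no binding was measured.

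Markers of the cells of the gonad moved with the comparison. In bulk RNA pools, a smaller share of a cell type's RNA recovered by the precipitation, fewer cells of that type and less RNA per cell cannot be told apart. A summed signal is set mostly by the brightest probes of a list. The shares to set beside the counts called are those over all genes tested, 28.0% higher and 25.4% lower. The summed signal of 8 germ cell markers was 15930% and 18030% in the FLAG IP, against 8736% and 9270% in the input, with 4 called higher and 1 lower. For 8 Sertoli cell markers it was 1607% and 1362% in the FLAG IP, against 6773% and 6521% in the input, and all 8 were called lower. All 6 Leydig cell markers were called lower, as were 7 of 8 of the interstitial mesenchyme, 3 of 5 of the endothelium, 4 of 4 measured of the red cell lineage and 3 of 4 measured of macrophages. The epithelial and mesonephric list had 4 higher and 2 lower of 8, with a sum of 490% and 366% in the FLAG IP, against 641% and 641% in the input. Krt7 and Krt19, the 2 called lower, made up 172% and 139% in the FLAG IP and 551% and 536% in the input of these sums. The median log2 fold change of the list was 0.56, opposite in direction to its sum. Of the multiciliated cell list of 9 genes, 6 were measured: Foxj1, Ccno and Trp73 were called higher and Fam183b, Cfap126 and Tppp3 lower. The sum of that list was 450.1% and 348% in the FLAG IP, against 302% and 289.9% in the input. Gmnc and Mcidas had no probe named on the array and Cdhr3 was dim. The part of these cell types in the values of the ciliary genes was not tested.

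The authors' deposited table was made from these same arrays, so it checks the computation and is no separate evidence. Its ratio of FLAG IP to input was set against the log2 fold change computed here for the 51 tested member probes. For all 51, both values stood on the same side of their own median over all probes. For the Dnah5 probe the authors' deposited table gives a ratio of 10.9, and for the brightest Bbs5 probe 4.18.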

How the data were processed

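Signals of 4 one-colour Agilent arrays were used, 2 of FLAG IP RNA and 2 of input RNA. Labelling with Cy3 started from 0.20 µg of RNA, per the labels' protocols. The submitters' processing notes name Agilent Feature Extraction 9.5. Its deposited files give, per the file headers, a background-corrected linear intensity for each spot. A table deposited by the authors gives a ratio of FLAG IP to input per probe, which was used only for comparison; its raw signals equal the mean of the 2 arrays of a group, so they carry no SD. All its columns of per-sample values are pooled by group and 0 were left unused.

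Control spots (leaving 43379 spots of 41174 probes per array) and outlier spots were left out, and log2 of the signal minus the 75th percentile of the array was taken. Probes that exceeded background in both replicates of either group were tested, and the brightest of these stood for its gene. Probes were named in RefSeq GRCm38.p6, 31004 by gene ID, 155 by symbol and 309 by older symbol; 1108 kept the file's name and 8598 had none. The arrays' own build differs, so the coordinates given are RefSeq's.

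The 15266 genes were fitted together with lmFit and eBayes of limma 3.58.1 (R 4.3.3, two-sided tests), with Benjamini-Hochberg adjustment and a threshold of 0.05. The design has 2 arrays per group, which leaves 2 residual degrees of freedom for each gene. The moderated p-values rest on these and on 2.08 prior degrees of freedom that eBayes estimated from all genes. The number of arrays limits the precision. The fit was tested on simulated data.

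The members, the gene lists and the named genes were chosen with earlier results of these data known. Within a stem, full values went to the 3 highest and 3 lowest log2 fold changes, and other measured members were also given; of each list the 2 highest and 2 lowest were named, with the transcription factors in full. The sources used here do not say whether replicate numbers pair a FLAG IP array with an input array. The correlation of deviations by replicate number was 0.0498, and 2 pairs cannot decide the question. The main fit did not pair the arrays. Protein lengths were not used here.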

Additional observations from a re-analysis of the deposited data

How the results depend on the processing

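With 2 arrays per group the fit called 12 members higher and 3 lower. Quantile normalization called 12 higher and 4 lower, beside 26.7% and 24.3% of all genes. Median centring called 11 and 4, beside 25.1% and 28.1%. The mean of a gene's probes called 11 and 3, beside 26.2% and 25.6%. With marked spots kept the counts were 12 and 3, beside 28.0% and 25.4%. With trend and robust settings eBayes called 13 and 4, beside 28.5% and 26.4%. A filter on all 4 arrays tested 24 members and called 12 and 4, beside 35.9% and 27.8%. It left out Efcab5 and added calls of Efcab2 and Ift20. Taken probe by probe, 15 member probes were called higher and 4 lower, beside 24.6% and 23.4% of all named probes tested. The brightest probes gave 12 and 3 genes. Without a filter on dim probes, 11 were called higher and 1 lower, beside 16.8% and 13.9% of all genes. Of the measured genes 10 were then called higher, and Efcab1 and Ift88 were not. The remaining higher call fell on a gene that was dim in both groups. The replicate block gave 12 and 2, beside 27.1% and 25.4% of all genes. Ift172 and Ift52 were then not called while Ift20 was. The median of the Ift and Bbs genes was 0.15 with median centring, 0.71 with the filter on all 4 arrays and 0.017 with every probe on its own, against 0.28, and that of the Efcab genes was 0.54 with the filter on all 4 arrays, against 0.96. The median of the Dnah and Tekt genes, 0.26, was 0.11 with quantile normalization, 0.13 with median centring and 0.45 with no filter on dim probes. Normexp background correction called 2 members higher (Bbs10 and Dnah5) and 0 lower, with 11 higher and 1 lower at an unadjusted p under 0.05, and 4 listed genes each way. The medians were then 0.92 for Ift and Bbs and 0.93 for Dnah and Tekt, with 0.38 over all genes, and Dnali1 turned to 0.53. The correction used an offset of 50 intensity units. The 75th percentile was 55.7 units on FLAG IP replicate 1 and 608 to 1038 on the other arrays. The part of this offset in the changes was not tested. The slide as a block is the fit without input replicate 1, since that array was alone on its slide: 3 members higher, 0 lower, a median of 0.30 for Ift and Bbs, and 5 listed genes higher and 6 lower.

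Leaving out each array in turn gave 3 to 19 members called higher, 0 to 10 lower, a median of 0.11 to 0.45 for the Ift and Bbs genes and of 0.21 to 0.45 for the Dnah and Tekt genes (0.45 without FLAG IP replicate 1 and 0.41 without FLAG IP replicate 2), and 5 to 40 listed genes higher and 6 to 32 lower. Without scaling, every log2 fold change was lower by the same amount (-2.49), which puts the dim FLAG IP arrays against the input as they were scanned. The medians were then -2.21 for Ift and Bbs, -2.23 for Dnah and Tekt, -1.53 for Efcab and -2.41 for all genes. No member and no listed gene was called (0 higher and 0 lower in limma; 0 members higher and 1 lower at an unadjusted p under 0.05). All 12 members called higher stayed above the median of all genes, but 11 of the 12 values turned negative: Bbs5 -0.30, Bbs10 -0.77, Bbs12 -1.24, Dnah8 -1.54, Efcab5 -0.65, Efcab1 -1.12, Ift81 -0.62, Ift57 -0.78, Ift80 -1.14, Ift74 -1.33 and Ift88 -1.51. Among the other named genes the values were Lztfl1 -0.76, Arl6 -1.21, Traf3ip1 -0.67, Ttc26 -1.44, Dnaaf5 -1.45, Dnal1 -1.73, Ccdc39 -0.48, Rab23 -1.37, Rab3ip -1.47, Trp73 -0.44, Rfx3 -1.29, Rfx4 -1.52, Kif17 -0.60, Tctex1d2 -1.61, Tctn3 -1.02, Rpgrip1l -1.41 and Nanos2 -0.61. The correlation of fold change with protein length was not run. Signal over background limits Bbs1, Bbs7, Efcab5, Tekt5 and 5 Dnah genes, which were well above background on 1 FLAG IP array. The same limit holds for the listed genes Rfx3, Rfx4, Kif17, Ccdc39, Ccdc65, Dnali1, Ift22, Sdccag8, Tctn2 and Tmem216.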
